A study of Mus musculus with 12 samples.

Results

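Whole lungs of Dicer mutant mouse embryos were compared with control lungs at E14.5, an embryonic stage at which the airway tree is branching. The comparison used 8 of the 12 arrays of the series, 4 Dicer mutant and 4 control. Both groups carried the Shh+/Cre allele, which drives Cre recombinase from the Shh locus, active in the lung epithelium. The controls (Shh+/Cre) carried nothing else by their labels, and the mutants (Dicerflox/flox;Shh+/Cre) also had both copies of Dicer floxed. The other 4 arrays were Yy1flox/flox;Shh+/Cre lungs, in which the transcription factor Yy1 was floxed instead, and they shared the fit that estimated the spread between arrays and the choice of probe sets. With the control and Dicer mutant arrays alone 1514 genes were called, against 1940 in the fit of all 12 arrays. Values were on a log2 scale, and each of 22180 genes was represented by the probe set with exactly 1 gene symbol that had the highest mean over all 12 arrays. The labels do not say whether specimens came from separate embryos or litters, and give no strain or sex, so the p-values measure only the spread between these specimens.

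Dicer is the ribonuclease that cuts hairpin precursors into mature microRNAs. A mature microRNA is loaded onto an Argonaute protein and pairs through its seed, bases 2 to 8 from its 5′ end, with messenger RNAs, which are then repressed or degraded. In the embryonic lung, epithelial microRNAs such as the miR-17 and let-7 families are known for roles in proliferation and branching, and the miR-200 family for holding epithelial cells in the epithelial state. Loss of the enzyme therefore removes a whole layer of regulation, and direct targets and secondary changes are mixed in a whole-organ RNA profile.

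The seeds behind 3 lists of published targets examined here are shown in capitals, from RefSeq (GRCm38.p6). The members of the miR-17 family shown here share a seed, and miR-200b and miR-200c differ from miR-200a within it.
let-7a-5p: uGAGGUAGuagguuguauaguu
miR-17-5p: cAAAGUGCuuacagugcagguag
miR-20a-5p: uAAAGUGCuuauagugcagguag
miR-200a-3p: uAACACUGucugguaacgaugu
miR-200b-3p: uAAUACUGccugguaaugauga
miR-200c-3p: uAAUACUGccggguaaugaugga
Whether any probe set reads the mature forms is not known from the labels, so their loss was not assessed.

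Dicer1 itself read 8.03, 8.27, 8.26 and 8.22 in the 4 Dicer mutants and 9.02, 8.85, 8.73 and 8.63 in the 4 controls. All mutants lay below all controls. The gene fell by 0.61 on the log2 scale (SE 0.0953, adjusted p = 0.00127), and where its probe set lies relative to the floxed exons is not given in the sources used here. A partial fall was measured in RNA that also held mesenchyme, vessels and blood cells, and fewer cells of a type and less RNA per cell cannot be told apart in such whole-lung values. The 40 measured genes nearest to Dicer1 in gene order, 20 on each side, had a median difference of -0.09. Of these limma called 0, with 4 at an unadjusted p under 0.05. Over all genes 8.75% were called, and 4948 of 22180 had an unadjusted p under 0.05.

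Across the transcriptome, 1940 of 22180 genes (8.75%) were called changed at an adjusted p under 0.05, 1060 of them higher (4.78%) and 880 lower (3.97%) in the Dicer mutants. The median difference of all genes was -0.03 on the log2 scale, and its 5th and 95th percentiles were -0.30 and 0.32. Most called changes were small. The median called rise was 0.43 and the median called fall -0.38, and 1303 of the called genes (67.2%) differed by less than 0.5. Only 62 called genes (0.28%) were at least 2-fold higher and 43 (0.194%) at least 2-fold lower. The 4 mutants and 4 controls did not overlap for 3538 genes (16.0%), among them 1840 of the 1940 called genes.

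**Figure D1:**
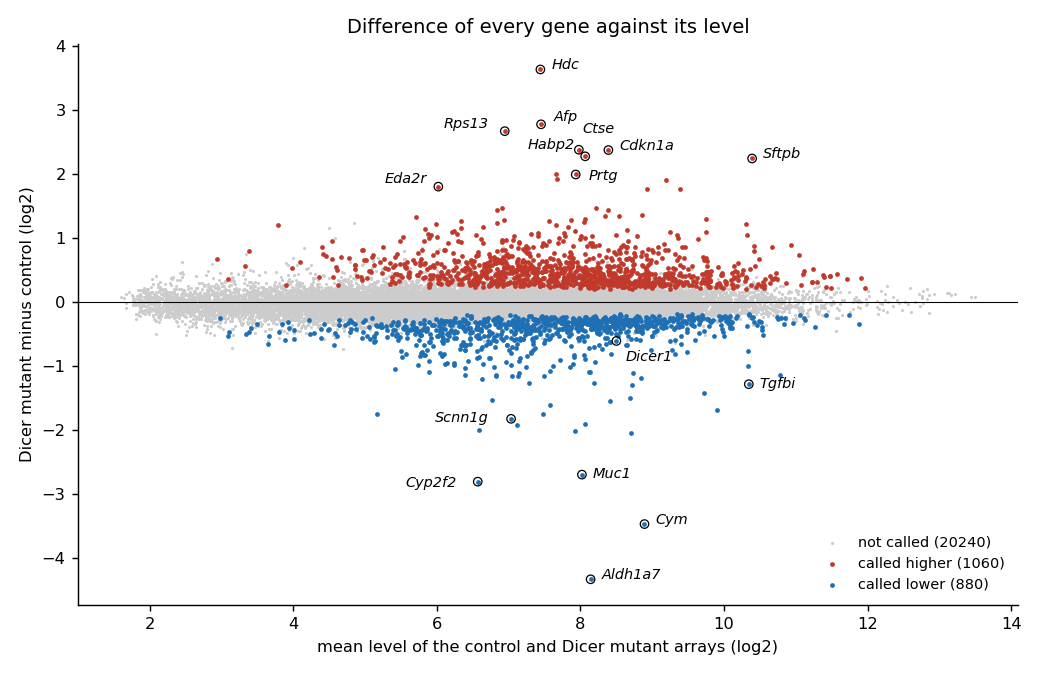
Each point is a gene, with the mean level of the 8 arrays on the x axis (log2) and the Dicer mutant minus control difference on the y axis (log2). The 1060 called rises and 880 called falls spread over the whole range of levels, and a small number of genes such as Hdc and Aldh1a7 stand more than 3 log2 units from 0.

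The share of genes called differed with the level of the gene. With genes ordered by mean level into 4 equal bins, the shares called from the dimmest to the brightest bin were 1.62%, 5.37%, 12.4% and 15.6%. The count also depended on single arrays. It was 1275 without Dicer mutant 4 and 1991 without control 2, and 1090 called genes (56.2%) kept their call and direction in every fit without 1 array. Dicer mutant 4 also differed from the other 7 arrays in Y-linked genes, with Eif2s3y at 7.84 against 3.73 to 4.48, and raised Y-linked levels were also found on 2 Yy1 mutant arrays. With all 3 of these arrays left out 976 genes were called. Unless an exception is stated, each gene named below as risen or fallen kept its call in all 8 fits that left out 1 array.

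Among 21 genes that process microRNAs or act with them, 4 changed (19%, against 8.75% of all genes), the targeted Dicer1 among them. The list's mean level of 8.49 to 8.55 lay within the brightest of 4 bins of genes by level, of which 15.6% were called. Dicer1 and Tsn, which encodes the translin subunit of an RNA-degrading complex, fell. Tnrc6a, which encodes the scaffold that links Argonaute to mRNA decay, read 9.73, 9.63, 9.76 and 9.69 in the mutants and 9.37, 9.01, 9.15 and 9.11 in the controls. Every mutant was above every control, a rise of 0.54 (SE 0.0883, adjusted p = 0.00168). Ago2, which encodes the Argonaute that can cut its target, rose by 0.29 (SE 0.0615, adjusted p = 0.00983), with mutants at 10.15, 10.02, 10.09 and 10.06 above controls at 9.77 to 9.82. Tnrc6a and Ago2 were higher in Dicer mutants than in Yy1 mutants as well, by 0.49 (adjusted p = 0.005) and 0.26 (adjusted p = 0.026).

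The 3 target lists held more rises than falls, and 12 to 16 members of each were not called. Of let-7, miR-17 and miR-200 targets 42.9%, 27.3% and 31.6% were called, against 8.75% of all genes. All genes also held more rises (4.78%) than falls (3.97%). The lists' mean levels lay within the brightest of 4 bins of genes by level, of which 15.6% were called, 493 genes higher and 371 lower. Of 21 measured let-7 targets 7 rose and 2 fell (median difference 0.08, against -0.03 for all genes). Trim71, an embryonic RNA-binding ubiquitin ligase known as a let-7 target, read 7.80, 7.45, 7.52 and 7.71 in the mutants and 7.14 to 7.18 in the controls, a rise of 0.46 (SE 0.0746, adjusted p = 0.00165). The gap between the groups was wider than the whole spread of the controls. Insr, the insulin receptor, rose by 0.47 (adjusted p = 0.00209) and Tgfbr1, a Tgf-beta receptor, by 0.40 (adjusted p = 0.00488). Ccnd2, a cyclin of early cell cycle entry that is also on the list, went the other way and fell by 0.78 (SE 0.0712, adjusted p = 2.1e-05), with a control mean of 10.72 and a Dicer mutant mean of 9.94 and no overlap. The second fall, in Myc, was called on all arrays (-0.26, adjusted p = 0.0492) and lost without Dicer mutant 3 or 4 or any of the 4 controls, with an adjusted p of up to 0.145, so that 1 fall was then called. Of the 9 called members, 8 differed between Dicer and Yy1 mutants in the same direction.

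Of 22 measured miR-17 family targets 6 rose (median 0.13). The largest were Cdkn1a, the Cdk inhibitor p21 (2.37), Trp53inp1, a p53-induced protein (1.0), and Bcl2l11, the pro-apoptotic protein Bim (0.70, SE 0.0731, adjusted p = 4.99e-05). Cdkn1a and Trp53inp1 are also p53 targets. Their Dicer minus Yy1 differences were -0.14, 0.26 and 0.27, and that of Bcl2l11 came nearest to the threshold among these 3 (adjusted p = 0.053). Without 1 array the count of rises was 4 or 5. Of 19 measured miR-200 family targets 5 rose and 1 fell (median 0.05). Zeb1, a repressor of epithelial genes, rose by 0.49 (SE 0.0758, adjusted p = 0.00119), with mutants at 7.80 to 7.90 and controls at 7.24 to 7.48. Kdr, the endothelial Vegf receptor, rose by 0.37 (adjusted p = 0.00525) and Zfpm2, a Gata cofactor, by 0.32 (adjusted p = 0.0141). The rises numbered 3 without Dicer mutant 2, 3 or 4 or control 4. The fall, in Cdh11, a mesenchymal cadherin (-0.25), was itself not called without Dicer mutant 1, 2 or 4 or control 1, 2 or 4. Another member was lower without Dicer mutant 2, and 2 members were lower without control 3.

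Of 483 measured probe sets for microRNA genes themselves 22 were higher and 1 lower (4.76%, against 8.75% of all genes). Their mean level was low, 5.05 to 5.16 over the 8 arrays, within the dimmest of 4 bins of genes by level, of which 1.62% were called, and which RNA form they detect is not given in the sources used here. The higher count was 11 without Dicer mutant 4 and 14 without Dicer mutant 2 or control 1, and the lower count was 5 without Dicer mutant 1, 4 without control 2 and 2 without Dicer mutant 3 or control 3 or 4. Of the 6 with the smallest p, 5 belong to the imprinted cluster on chromosome 12 that also holds the non-coding host RNA Rian. Rian read 10.55, 10.84, 10.71 and 10.74 in the mutants and 10.02 to 10.29 in the controls, a rise of 0.56 (SE 0.0816, adjusted p = 0.000767). The rises of Mir379 (0.75), Mir154 (0.62) and Mir382 (0.49) came with adjusted p of 0.00524, 0.00446 and 0.0043. Mir181b-1, from chromosome 1, rose by 0.52 (adjusted p = 0.00153). The Dicer and Yy1 mutants differed by -0.02 for Rian and 0.08 for Mir379, neither past the test. The 5p mature product of each of these 4 microRNA genes in RefSeq, shown because the seeds, in capitals, all differ, is as follows.
miR-379-5p: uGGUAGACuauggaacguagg
miR-154-5p: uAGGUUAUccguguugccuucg
miR-382-5p: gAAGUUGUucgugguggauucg
miR-181b-5p: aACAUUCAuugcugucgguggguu

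The largest rise was in Hdc, which encodes histidine decarboxylase, the enzyme that makes histamine. Hdc read 9.45, 9.61, 8.29 and 9.69 in the Dicer mutants and 5.35, 6.04, 5.47 and 5.65 in the controls. The lowest mutant was more than 2 log2 units above the highest control, and the rise of 3.63 (SE 0.263, adjusted p = 3.63e-06) is 12.4-fold. Histamine is made by mast cells, so their markers are given beside it. Of 18 measured, 5 were called higher, Hdc among them, where 4.78% of all genes were. Without Dicer mutant 2 or 4 or control 1, 3 or 4 the count was 3. The mean level of the list was 5.17 to 5.31 in controls and 5.46 to 5.68 in mutants. The receptor Kit rose by 0.51 (adjusted p = 0.000439) and the prostaglandin D synthase Hpgds by 0.51 (adjusted p = 0.00662), while the mast cell proteases Mcpt4 (0.07) and Tpsb2 (0.31) and the IgE receptor subunits Fcer1a (-0.28) and Ms4a2 (0.00) were not called. Their part in the rise of Hdc was not tested.

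Afp, alpha-fetoprotein, the main serum protein of the fetal liver and yolk sac, rose by 2.77 (SE 0.231, adjusted p = 1.03e-05). It read 8.93, 8.42, 8.33 and 9.69 in the mutants against 6.41, 5.87, 6.02 and 5.96 in the controls. Of 35 liver-type serum protein genes 4 were called, Afp among them (11.4%, against 8.75% of all genes), and the list's median difference was 0.00. The other 3 were Apoe, Apoc1 and Cubn. Cubn, an endocytic receptor, rose by 0.88 (SE 0.0891, adjusted p = 4.23e-05).

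Several of the next largest rises were in genes of proteases and receptors. Habp2, a secreted serine protease that binds hyaluronan, read 9.36, 9.20, 8.90 and 9.35 in the mutants and 6.85, 7.10, 6.86 and 6.90 in the controls, a rise of 2.27 (SE 0.108, adjusted p = 5.15e-08). Prtg, protogenin, an immunoglobulin-family receptor of early embryos, had the smallest p of all rises. It read 8.92, 8.87, 8.91 and 9.02 against 6.94, 6.92, 6.92 and 6.98, so a rise of 1.99 (SE 0.0656, adjusted p = 2.15e-09) stood on groups whose SDs were 0.0631 and 0.028. Ctse, the aspartic protease cathepsin E, rose by 2.38 (SE 0.274, adjusted p = 0.000125). Control 1 read 7.65 for Ctse and the other controls 6.39 to 6.60, all below the mutants at 8.80 to 9.98. Fermt1, kindlin-1, which activates integrins in epithelial cells, rose by 1.92 (SE 0.113, adjusted p = 4.91e-07), and Glp1r, the receptor of an incretin hormone, by 1.90 (SE 0.397, adjusted p = 0.0087). Glp1r varied among the controls from 7.33 to 9.16, and the mutants lay above them at 9.76 to 10.58. Smaller rises of more than 1 log2 unit included Mia2, which helps load large cargo at the endoplasmic reticulum (1.32), the phosphodiesterase Pde7b (1.34), the hyaluronan scavenger receptor Stab2 (1.26) and the Ras-like G protein Rasd1 (1.26). Slain1, a microtubule regulator, rose by 1.30 with its brightest probe set and by 0.64 over the mean of its probe sets.

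**Figure D2:**
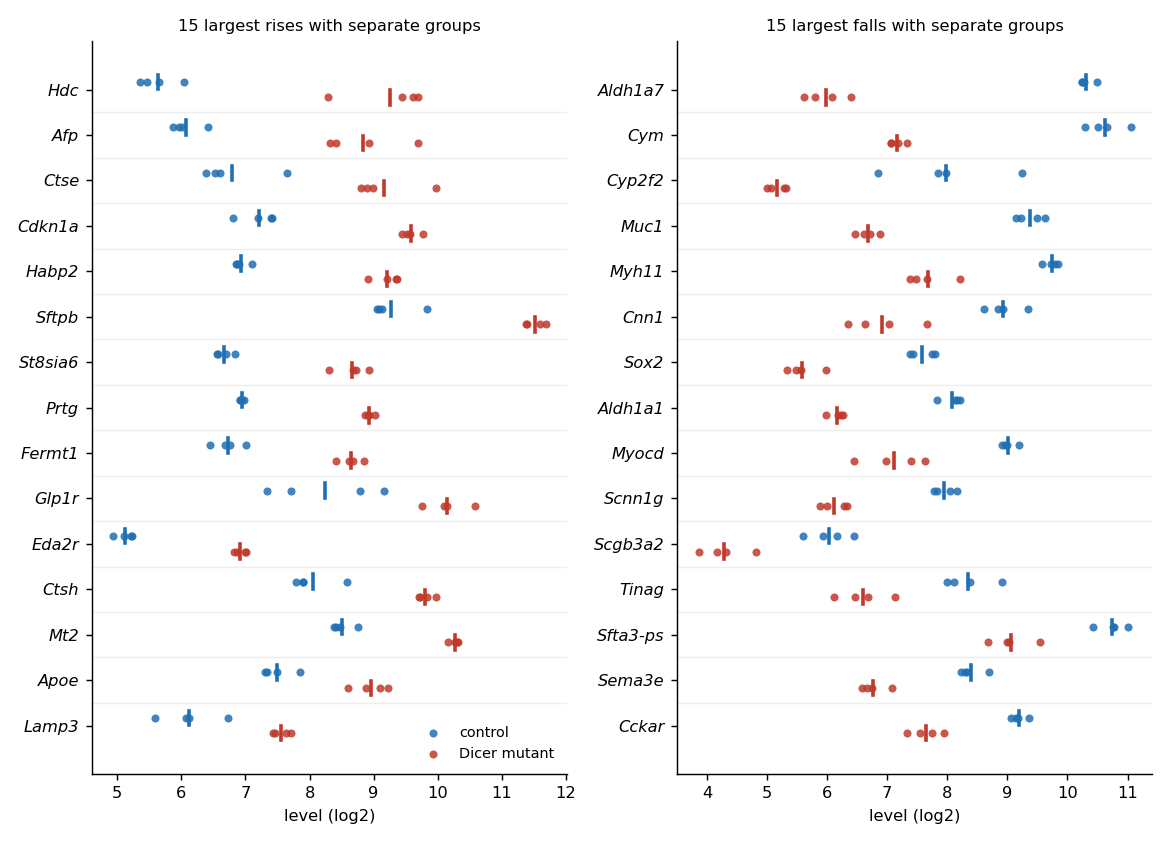
Levels (log2, x axis) of the 15 largest rises (left) and 15 largest falls (right) whose groups did not overlap, with a point for each of 4 control and 4 Dicer mutant arrays and a bar at each group mean. The genes were chosen for their separation, which is therefore no finding, and the plot shows how unequal the spread is, narrow for Prtg and wide for Glp1r, Hdc and Cyp2f2.

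The largest fall was in Aldh1a7, an aldehyde dehydrogenase. It read 5.62, 5.80, 6.40 and 6.09 in the Dicer mutants and 10.27, 10.24, 10.49 and 10.24 in the controls. The fall of 4.34 (-4.34, SE 0.152, adjusted p = 2.33e-09) was the largest change in either direction. Its relative Aldh1a1, which can make retinoic acid from retinal, fell by 1.92 (SE 0.133, adjusted p = 2.54e-06). The family moved unevenly, since Aldh2, the mitochondrial enzyme for acetaldehyde, rose by 0.35 (adjusted p = 0.014), or by 0.17 over the mean of its probe sets. Cym, the aspartic protease chymosin, fell by 3.47 (SE 0.194, adjusted p = 3.09e-07), from 10.30 to 11.05 in the controls to 7.05 to 7.33 in the mutants. Cym and Ctse belong to the same protease family and went opposite ways.

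Muc1, a membrane mucin of epithelial surfaces, read 6.72, 6.62, 6.88 and 6.47 in the mutants and 9.22, 9.63, 9.50 and 9.14 in the controls, a fall of 2.70 (-2.70, SE 0.118, adjusted p = 2.25e-08). Cyp2f2, a cytochrome P450 of club cells, fell by 2.81 (SE 0.339, adjusted p = 0.000179) from controls that ranged widely, and by 1.60 over the mean of its probe sets. Further falls of more than 1 log2 unit were in genes of different functions. Homer2, a scaffold of calcium signalling, fell by 1.54 (SE 0.122, adjusted p = 7.28e-06), and Mal2, a protein of transcytosis in polarised cells, by 1.43 (SE 0.138, adjusted p = 2.98e-05). Elapor1, a protein of endosomes and lysosomes, fell by 1.2 (adjusted p = 5.23e-05) and Tinag, a basement membrane protein, by 1.75 (adjusted p = 0.000153). Lung epithelium markers, which several of these genes accompany, moved in both directions: 18 of 30 were lower and 5 higher, and the list's mean level was 8.14 to 8.35 in mutants and 8.48 to 8.74 in controls. The part of epithelial cell number in these falls was not tested.

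Called genes were spread unevenly over 131 gene lists, which hold 7174 of the measured genes and 777 of the called ones. The highest shares among lists of at least 10 measured genes were in cell type markers. Of 28 macrophage and leukocyte markers 23 rose (82.1%), of 30 lung epithelium markers 18 fell and 5 rose (76.7%), of 18 smooth muscle markers 12 fell and 1 rose (72.2%), and of 26 endothelial markers 15 rose (57.7%). Macrophages, smooth muscle and endothelium lie outside the epithelium in which the Shh-driven Cre acts. Ribosomal, respiratory chain and splicing lists stood below the 8.75% of all genes.

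**Figure D3:**
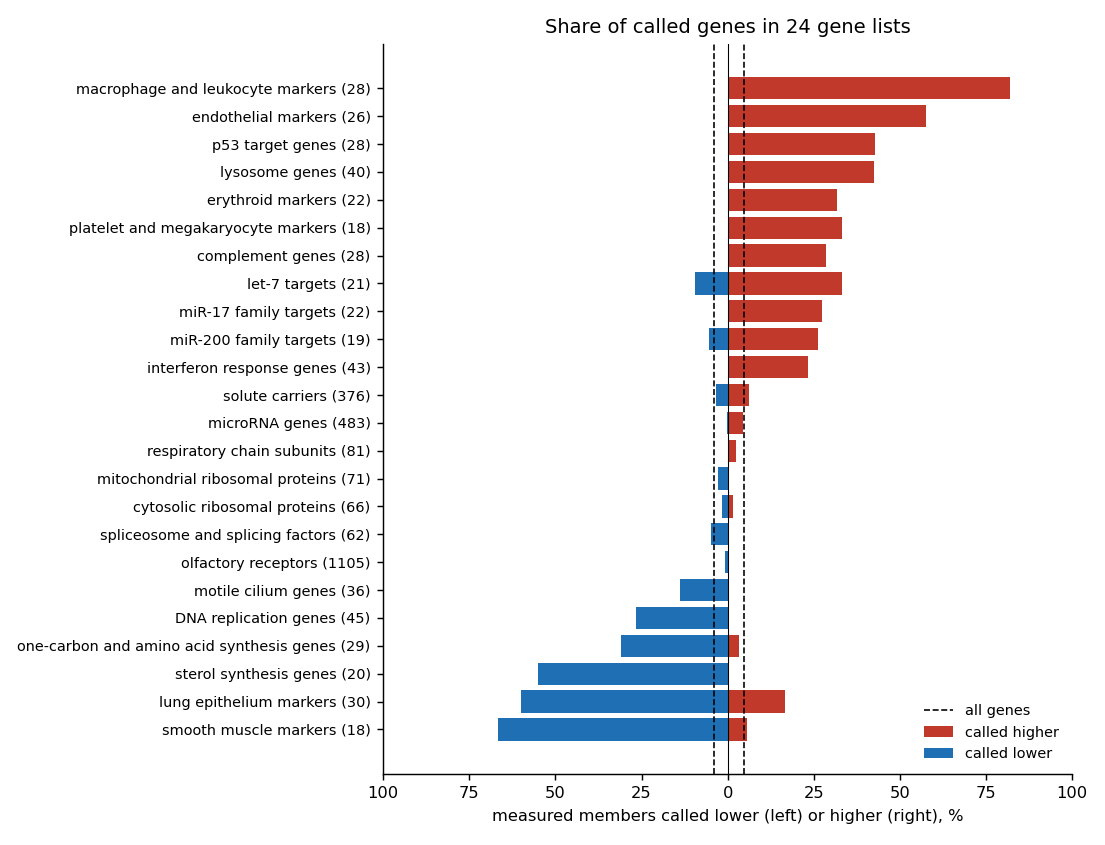
Percent of the measured members of 24 gene lists (their number in brackets) that were called higher (right) or lower (left) in Dicer mutants, with dashed lines at the shares of all genes, 4.78% higher and 3.97% lower. Macrophage markers reach 82.1% to the right and sterol synthesis genes 55.0% to the left, while ribosomal, respiratory and olfactory receptor lists stay inside or near the dashed lines.

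Lists of cell-wide housekeeping functions lay on both sides of the background. Of 66 cytosolic ribosomal proteins 2 were called (3.03%), of 71 mitochondrial ribosomal proteins 2 (2.82%), of 81 respiratory chain subunits 2 (2.47%) and of 62 spliceosome and splicing factors 3 (4.84%). The medians of these lists were -0.02, -0.09, -0.03 and -0.08. Above the 8.75% of all genes were glycolysis genes, with 5 of 21 called (23.8%), and citrate cycle genes with 3 of 27 (11.1%). So were nuclear pore proteins with 2 of 19 (10.5%) and proteasome subunits with 5 of 49 (10.2%). Except for the mitochondrial ribosomal proteins, each of these lists had a mean level within the brightest of 4 bins of genes by level. Of that bin 15.6% were called, and only the glycolysis share was above that. The mitochondrial ribosomal list lay in the next bin, of which 12.4% were called. Of 85 histone-modifying enzymes 3 were called (3.53%), and of 36 Hox genes 1 (2.78%). Among 1105 olfactory receptors, which detect odours in the nose, 0 were higher and 7 lower (0.633%; 97 at an unadjusted p under 0.05 with limma). The lower count was 16 without control 2, 4 without control 1, 2 without control 4 and 1 without Dicer mutant 2 or 4. The other counts, being small, also moved with single arrays. For example, without Dicer mutant 2 the calls numbered 0 in the cytosolic ribosomal, respiratory and Hox lists, 1 in each of the splicing, glycolysis, citrate cycle and nuclear pore lists and 3 in the proteasome list. Glycolysis calls numbered 1 to 3 in each of the 7 fits that left out an array other than Dicer mutant 1. The highest ribosomal value, Rps13, was called at 2.67 (SE 0.744, adjusted p = 0.0404), but controls 1 and 2 read 3.46 and 4.19 and controls 3 and 4 read 7.56 and 7.24, with Dicer mutant 1 at 7.48. The groups overlapped, and the call was lost without Dicer mutant 2, 3 or 4 or control 1 or 2, with an adjusted p of up to 0.113.

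Genes of sterol synthesis fell together. This pathway builds cholesterol from acetyl units and is switched on by the factor Srebf2 when sterols are scarce. Of 20 measured genes 11 fell (55.0%, against 3.97% of all genes). The median was -0.33, against -0.03 for all genes, and 19 of the 20 differences were negative. Sqle, squalene epoxidase, read 7.94, 7.98, 7.81 and 7.94 in the mutants and 8.75, 8.56, 8.55 and 8.52 in the controls, a fall of 0.68 (-0.68, SE 0.0835, adjusted p = 0.000214). The groups were separate with a gap of more than 0.5. Msmo1, a methylsterol oxidase, fell by 0.56 (SE 0.0825, adjusted p = 0.000847), and Dhcr7, the last enzyme of the pathway, by 0.39 (SE 0.064, adjusted p = 0.00189). Insig1, which holds the Srebf2 precursor in the endoplasmic reticulum and is itself induced by it, fell by 0.49 (SE 0.0791, adjusted p = 0.00162). Hmgcs1, which makes the substrate of the rate-limiting step, fell by 0.45 (adjusted p = 0.00331). Between 8 and 12 members were lower without 1 array, and 1 was higher without control 2.

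Promoters of these genes were searched for the sterol element TCACNCCAC on both strands, in the 250 bases before each start in RefSeq (GRCm38.p6). It was found in 1 of 16 sterol genes with a promoter entry, against 208 of 16990 measured genes with an entry (1.22%) and 1.05% of all 32851 windows. The gene was Hmgcs1, whose element, in capitals, starts 137 bases before the start site (chr13:119690101-119690350, plus strand). The window of Msmo1, with the smallest p among members that have an entry, held none (chr8:64733579-64733828, minus strand).
Hmgcs1: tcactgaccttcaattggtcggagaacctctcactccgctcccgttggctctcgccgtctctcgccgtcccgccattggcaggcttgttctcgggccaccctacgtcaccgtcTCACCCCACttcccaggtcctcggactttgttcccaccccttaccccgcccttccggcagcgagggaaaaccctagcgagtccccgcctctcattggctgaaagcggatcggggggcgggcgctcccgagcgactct
Msmo1: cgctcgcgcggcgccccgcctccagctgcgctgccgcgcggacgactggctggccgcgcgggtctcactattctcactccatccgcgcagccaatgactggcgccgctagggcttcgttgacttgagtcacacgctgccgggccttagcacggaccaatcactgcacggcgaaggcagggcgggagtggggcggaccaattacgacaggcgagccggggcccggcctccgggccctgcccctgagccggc

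Single genes of lipid transport and handling went in both directions. Abca1, the transporter that loads cholesterol onto apolipoproteins, read 9.13, 9.15, 9.10 and 9.25 in the mutants and 8.55 to 8.62 in the controls, a rise of 0.56 (SE 0.0644, adjusted p = 0.000121). The spread within each group was narrow beside the gap. Apoe, a cholesterol-carrying apolipoprotein, rose by 1.46 (SE 0.145, adjusted p = 3.46e-05) and Apoc1 by 0.96 (SE 0.12, adjusted p = 0.000237). Gramd1b, which moves cholesterol from the plasma membrane to the endoplasmic reticulum, rose by 1.27 (SE 0.113, adjusted p = 1.63e-05). Lipa, the lysosomal lipase that frees cholesterol from esters, rose by 0.54 (SE 0.0606, adjusted p = 0.000104). Of 48 ATP-binding cassette transporters 11 rose and 4 fell (31.2% called, against 8.75% of all genes), with a median difference of -0.01. The counts were 7 and 1 without Dicer mutant 2 and 8 and 2 without control 1 or 4. Abca8a (0.87) and Abca6 (0.80), adjacent members of this family, were among the rises, and Abca2, a transporter of late endosomes, fell by 0.55 (adjusted p = 8.18e-05). Atp8a1, a phospholipid flippase, fell by 1.11 (SE 0.0945, adjusted p = 1.27e-05), and Ugt8a, the enzyme of galactosylceramide synthesis, by 1.02 (SE 0.0838, adjusted p = 9.12e-06). Abca1, Apoe and Lipa are also made by macrophages, whose list mean was 7.10 to 7.21 in mutants and 6.68 to 6.73 in controls, and the part of those cells was not tested.

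Lysosomal genes rose. Of 40 measured, 17 were called, all higher (42.5%, against 4.78% of all genes), with 11 called without Dicer mutant 2 or 4 or control 3 or 4. The median difference was 0.25, against -0.03 for all genes. The list's mean level lay within the brightest of 4 bins of genes by level, of which 15.6% were called in either direction. Of the 17 rises, 4 were also above the Yy1 mutants past the test. Cd68, a membrane protein of macrophage lysosomes, rose by 0.75 (adjusted p = 7.99e-05) and Laptm5, of leukocyte lysosomes, by 0.66 (adjusted p = 0.000177). The largest rises on the list were in Ctsh and Lamp3. Ctsh, the cathepsin that processes surfactant proteins, read 9.83, 9.70, 9.72 and 9.97 in the mutants and 7.90, 8.59, 7.90 and 7.79 in the controls, a rise of 1.76 (SE 0.202, adjusted p = 0.000121). Lamp3, a membrane protein of lamellar bodies and of mature dendritic cells, rose by 1.44 (SE 0.177, adjusted p = 0.00021). Control 2 was the highest control for both and still lay below every mutant. Cd68 and Laptm5 are also on the macrophage and leukocyte list, of which 23 of 28 members rose, and the part of those cells in the lysosomal rises was not tested.

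**Figure D4:**
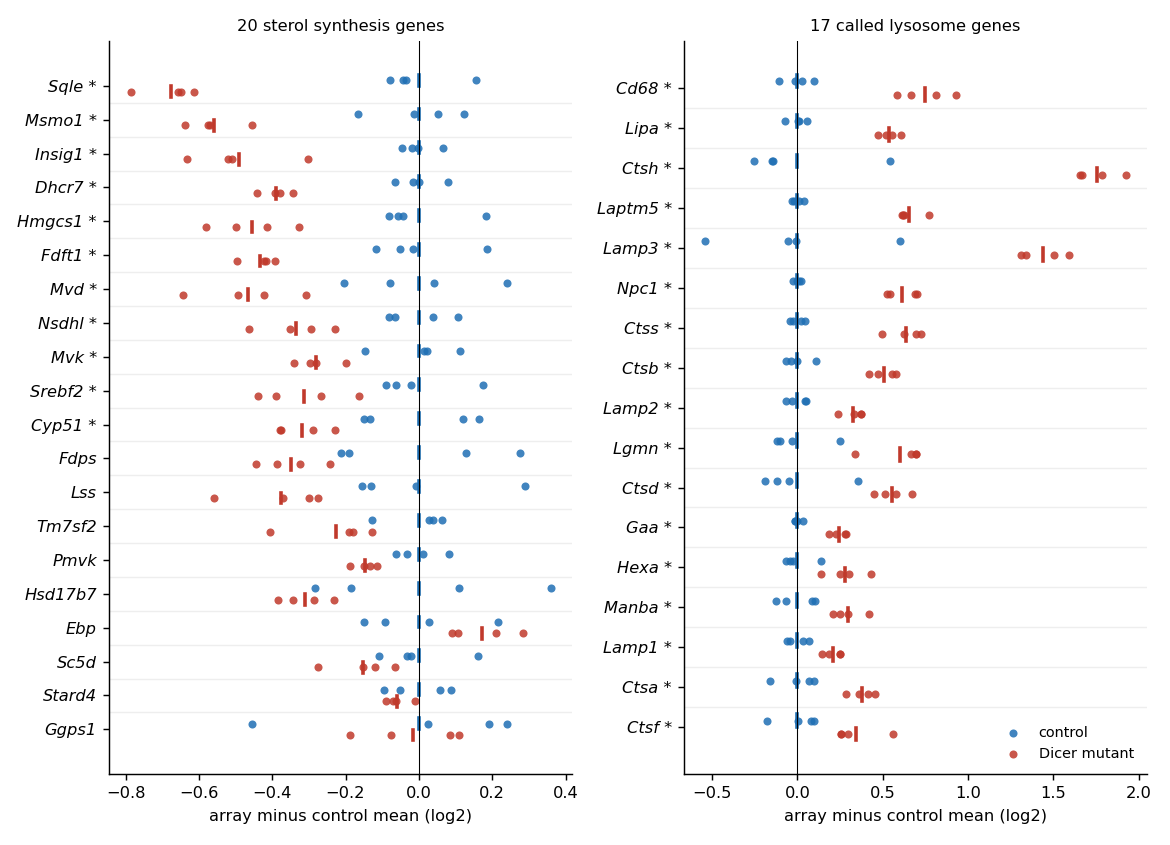
Each array minus the control mean (log2, x axis) for all 20 sterol synthesis genes (left, ordered by p, called genes with a star) and for the 17 called lysosome genes (right), with bars at group means. Of the 20 sterol genes, 19 have a negative mean difference and only Ebp a positive one, and the lysosome genes, shown because they were called, rise by 0.21 to 1.76.

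Within the lung epithelium list, where 18 members fell, Sftpb was among the 5 that rose. Sftpb, a surfactant protein needed to form lamellar bodies, read 11.68, 11.40, 11.37 and 11.60 in the mutants and 9.05, 9.84, 9.08 and 9.13 in the controls, a rise of 2.24 (SE 0.215, adjusted p = 2.72e-05). Abca3, the transporter that fills lamellar bodies with phospholipid, read 9.23, 9.27, 9.05 and 9.28 against 8.12, 8.29, 8.0 and 7.98, a rise of 1.11 (SE 0.0825, adjusted p = 4.15e-06). The groups were apart for both genes. The phosphate transporter Slc34a2 (1.17, adjusted p = 0.00494) and Sftpa1, a surfactant collectin (1.10, adjusted p = 0.000883), also rose, and these 2 genes were named after their values were seen. The groups overlapped for Slc34a2.

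Several ion channels of epithelial fluid transport fell. Scnn1g, the gamma subunit of the epithelial sodium channel, read 6.32, 6.0, 6.28 and 5.88 in the mutants and 8.16, 8.04, 7.83 and 7.77 in the controls, a fall of 1.83 (-1.83, SE 0.135, adjusted p = 4.15e-06). Scnn1b, the beta subunit, fell by 0.84 (SE 0.0739, adjusted p = 1.55e-05). The chloride channels Ano1, gated by calcium, and Cftr, gated by cyclic AMP, fell by 1.19 (SE 0.119, adjusted p = 3.72e-05) and 1.16 (SE 0.137, adjusted p = 0.000156). In the whole family of 48 sodium and chloride channel genes 6 rose and 7 fell (27.1% called, against 8.75% of all genes). The rises numbered 3 without Dicer mutant 2. Clic6, an intracellular channel protein, rose by 0.50 (adjusted p = 0.00949). Potassium channels stood near the background, with 7 of 90 called (7.78%). Kcnt2, a sodium-activated channel, rose by 1.21 (SE 0.112, adjusted p = 2.14e-05). Solute carriers were near the background too, with 23 higher and 13 lower of 376 (9.57%), the falls numbering 6 without Dicer mutant 2, 7 without Dicer mutant 4 and 8 without control 3. Slco4c1, an organic anion carrier, rose by 1.43 (SE 0.13, adjusted p = 1.97e-05), and Slc6a14, an amino acid carrier, fell by 0.92 (adjusted p = 4.99e-05).

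Genes of one-carbon metabolism and amino acid synthesis were mostly lower. These enzymes supply serine, glycine and folate-bound carbon for nucleotides. Of 29 measured 9 fell and 1 rose (34.5% called, against 8.75% of all genes), and the median was -0.18. There were 4 falls without Dicer mutant 1 or control 1 and 5 without control 3. Mthfd2, a mitochondrial folate enzyme, read 6.88, 6.82, 6.83 and 6.72 in the mutants and 7.42, 7.26, 7.32 and 7.29 in the controls, a fall of 0.51 (-0.51, SE 0.0615, adjusted p = 0.000179). Shmt1, which moves carbon from serine to folate, fell by 0.41 (adjusted p = 0.00414) and Psat1, of serine synthesis, by 0.42 (adjusted p = 0.00536). The exception was Oat, ornithine aminotransferase, which rose by 0.70 (SE 0.0706, adjusted p = 4.23e-05). Of 31 aminoacyl-tRNA synthetases 5 fell (16.1%), Yars (-0.32, adjusted p = 0.013) among them, and 3 without Dicer mutant 2, 3 or 4 or control 1. The mean level of the synthetase list lay within the brightest of 4 bins of genes by level. Of that bin 15.6% were called, so the share of the synthetases was near that of genes of their level.

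Genes of DNA replication were lower by small amounts. Of 45 measured 12 fell (26.7%, against 3.97% of all genes), but 6 were called without Dicer mutant 4 or control 1. The median was -0.17, against -0.03 for all genes, and 41 of 45 differences were negative. The list's mean level lay within the brightest of 4 bins of genes by level, of which 15.6% were called in either direction. Uhrf1, which recruits the maintenance methyltransferase to replicating DNA, read 9.02, 8.95, 8.95 and 8.87 in the mutants and 9.28 to 9.46 in the controls, a fall of 0.41 (-0.41, SE 0.0636, adjusted p = 0.00132). The replication initiators Mcm10 and Cdc6 fell by 0.44 (adjusted p = 0.00282) and 0.41 (adjusted p = 0.00419). The Dicer minus Yy1 differences of Uhrf1, Mcm10 and Cdc6 were -0.01, -0.04 and -0.08, none past the test.

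Targets of p53, a factor that responds to DNA damage and other stress, rose. Of 28 measured 12 rose (42.9%, against 4.78% of all genes) and the median was 0.19, against -0.03 for all genes. Eda2r, a receptor of the tumour necrosis factor family, read 6.86, 7.0, 6.83 and 6.99 in the mutants and 5.21, 4.94, 5.11 and 5.23 in the controls, a rise of 1.80 (SE 0.0735, adjusted p = 1.2e-08). Cdkn1a rose by 2.37 (SE 0.157, adjusted p = 1.81e-06) and Ccng1, cyclin G1, by 1.29 (SE 0.0702, adjusted p = 2.51e-07). Other known targets were not called, such as the p53 inhibitor Mdm2 (0.07) and the pro-apoptotic genes Bbc3 (-0.01) and Pmaip1 (0.09). The metallothioneins Mt1 and Mt2, which bind zinc and copper, rose by 1.34 (SE 0.0994, adjusted p = 4.15e-06) and 1.75 (SE 0.123, adjusted p = 2.8e-06), 2 of the 4 measured members.

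Several lists of blood and immune genes held rises, and 4.78% of all genes were called higher. Of 28 complement genes 8 rose, and 8 were higher in each fit without 1 array. Cfi, complement factor I, read 8.55, 8.35, 8.14 and 8.59 in the mutants and 7.29, 7.44, 7.03 and 7.19 in the controls, a rise of 1.17 (SE 0.117, adjusted p = 3.6e-05). Clu, clusterin, rose by 0.99 (SE 0.102, adjusted p = 4.54e-05), and C1qb, a chain of the complement starter C1q made by macrophages, by 0.95 (SE 0.101, adjusted p = 5.79e-05). The list mean of macrophage markers moved with them, as given above, and its part was not tested. Of 22 erythroid markers 7 rose, among them Fech, the last enzyme of haem synthesis (0.98, SE 0.103, adjusted p = 5.11e-05), the mitochondrial iron importer Slc25a37 (1.22, adjusted p = 4.23e-05) and the membrane anion exchanger Slc4a1 (1.02, adjusted p = 0.000263). The embryonic globin Hbb-y (-0.13) and the factors Gata1 (-0.01) and Klf1 (0.00) were not called. The mean level of the erythroid list was 6.76 to 6.87 in controls and 7.07 to 7.32 in mutants, and the part of red cell content was not tested. Of 18 platelet markers 6 rose, with Ppbp, a platelet chemokine, at 0.70 (adjusted p = 0.000827). Of 15 neutrophil markers limma called 0, with 1 at an unadjusted p under 0.05.

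Of 43 interferon response genes 10 rose (23.3%, against 4.78% of all genes), or 6 without Dicer mutant 2 or 4. Ifih1, a sensor of double-stranded RNA, read 6.38, 6.76, 6.75 and 6.52 in the mutants and 5.72 to 5.91 in the controls, a rise of 0.76 (SE 0.12, adjusted p = 0.00147). Trim25, a ubiquitin ligase of the RNA sensing pathway, rose by 0.50 (adjusted p = 0.000811), Isg20, an exonuclease, by 0.73 (adjusted p = 0.000856) and Igtp, an immunity-related GTPase, by 0.60 (adjusted p = 0.000128). Others on the list, such as Ifit1 (-0.15), Isg15 (0.06), Mx1 (0.08) and Oas2 (-0.07) were not called.

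Matrix and protease genes changed in both directions. Of 32 proteoglycan genes 6 rose and 5 fell. Dcn, decorin, rose by 0.88 (SE 0.0821, adjusted p = 2.33e-05), and Ogn, osteoglycin, by 1.04 (SE 0.122, adjusted p = 0.000153), while Fmod, fibromodulin, of the same leucine-rich family, fell by 1.01 (SE 0.129, adjusted p = 0.000279). Of 82 Adam, Adamts, Mmp and Timp genes 13 rose and 4 fell. Adamts1, a protease that cuts proteoglycans, read 9.65, 9.49, 9.57 and 9.47 in the mutants and 8.16, 8.41, 8.12 and 8.02 in the controls, a rise of 1.36 (SE 0.0967, adjusted p = 2.99e-06), and Adamts5 rose by 0.92 (adjusted p = 2.25e-05). Tgfbi, an integrin-binding matrix protein, fell by 1.29 (SE 0.112, adjusted p = 1.42e-05) and Tnc, tenascin C, by 1.28 (SE 0.202, adjusted p = 0.00141). Of 12 laminins and nidogens 4 rose and 1 fell, Lama1 by 0.76 (adjusted p = 0.000116) and Lama3 by 0.70 (adjusted p = 0.000553) upward and Lamb3 by 0.59 downward (adjusted p = 0.00499).

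Guidance genes, whose proteins steer axons and vessels, also split. Of 41 Slit, Robo, netrin and related genes 7 rose and 7 fell. Unc5b, a netrin receptor of vessels, rose by 0.97 (SE 0.0757, adjusted p = 6.82e-06) and its ligand Ntn1 fell by 0.67 (adjusted p = 0.00055). Slit2 rose by 0.48 (adjusted p = 0.000748) and its receptor Robo2 fell by 0.75 (adjusted p = 0.000227). Of 32 semaphorins and plexins 5 rose and 3 fell. Sema3e, a repellent of vessels, fell by 1.62 (SE 0.13, adjusted p = 7.51e-06), and Plxna4, a semaphorin receptor, rose by 0.95 (SE 0.0847, adjusted p = 1.7e-05).

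Among genes of growth factor signalling, calls went in both directions, beside 4.78% of all genes called higher and 3.97% lower. Of 49 receptor tyrosine kinases 13 rose and 5 fell, or 9 and 3 without control 3 or 4, 10 and 3 without Dicer mutant 4, 10 and 2 without control 1, and 13 and 3 without Dicer mutant 1. Ret, the receptor of glial-derived neurotrophic factor, fell by 1.15 (SE 0.103, adjusted p = 1.7e-05), and Epha4, an ephrin receptor, rose by 0.86 (SE 0.0858, adjusted p = 3.6e-05). Igf1, insulin-like growth factor 1, fell by 1.10 (SE 0.147, adjusted p = 0.000414), from 8.56 to 8.76 in the controls to 7.10, 7.53, 7.92 and 7.72 in the mutants. Of 67 Bmp and Tgf-beta pathway genes 9 rose and 6 fell, with 3 falls without control 1. Bmp4, a ligand made at branch tips, rose by 0.73 (SE 0.0866, adjusted p = 0.000161), and Id2, a Bmp-induced inhibitor of differentiation, by 0.85 (SE 0.0782, adjusted p = 2.11e-05). The mutants read 11.34 to 11.47 and the controls 10.55 to 10.82 for Bmp4, with no overlap.

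Hormone and peptide receptors were called about as often as genes at large, 9 of 96 (9.38%). Calcrl, the receptor of adrenomedullin and calcitonin gene-related peptide, read 9.79, 9.88, 9.68 and 9.83 in the mutants and 8.60 to 8.80 in the controls, a rise of 1.09 (SE 0.0971, adjusted p = 1.63e-05). Cckar, a cholecystokinin receptor, fell by 1.55 (SE 0.152, adjusted p = 3.46e-05), and Lgr6, a receptor for R-spondins, by 1.16 (SE 0.0798, adjusted p = 2.54e-06).

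The Yy1 mutants share the controls with the Dicer mutants. The direct comparison of Dicer with Yy1 mutants, which does not use the controls, called 1101 genes (4.96%). Of the 1940 genes called against the controls, 512 (26.4%) were among them, 354 higher than both other groups and 115 lower than both. Hdc stood 3.08 above its level in Yy1 mutants (adjusted p = 1.8e-05), Afp 2.43 (adjusted p = 4.6e-05) and Prtg 1.87, with Yy1 mutants at 6.96 to 7.20 for Prtg. Fermt1 read 6.04 to 6.21 in Yy1 mutants, below the controls, so it differed by 2.49 between the mutants. Cfi, Lama3 and Epha4 also lay on opposite sides of the controls, with Dicer minus Yy1 differences of 1.83, 1.74 and 1.60. Abca3 read 7.82 to 8.01 in Yy1 mutants, near the controls, and differed by 1.29 (adjusted p = 1.1e-06), while Lamp3, of the same organelle, differed by 0.03 and did not pass the test. The 7 called erythroid markers were all higher than in Yy1 mutants as well, Fech by 1.15 (adjusted p = 2.7e-05), and so were 7 of the 10 called interferon response genes and 9 of the 15 called endothelial markers.

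Falls that differed between the mutants were fewer. Ndnf, a secreted neurotrophic factor, read 7.89, 7.48, 8.70 and 8.23 in the Dicer mutants, 9.16, 9.61, 9.44 and 9.11 in the Yy1 mutants and 9.20, 9.65, 9.26 and 9.38 in the controls. Its difference from Yy1 mutants was -1.25, and those of Tgfbi and Atp8a1 were -1.15 and -0.98. Cftr and Cckar fell in both mutants but less in Dicer mutants, by 1.0 (adjusted p = 0.0007) and 1.04 (adjusted p = 0.0011). The Dicer minus Yy1 differences were 0.02 for Sqle, -0.01 for Dhcr7, -0.01 for Uhrf1 and -0.07 for Ccng1, and a difference that misses the test does not show that the mutants are alike.

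**Figure D5:**
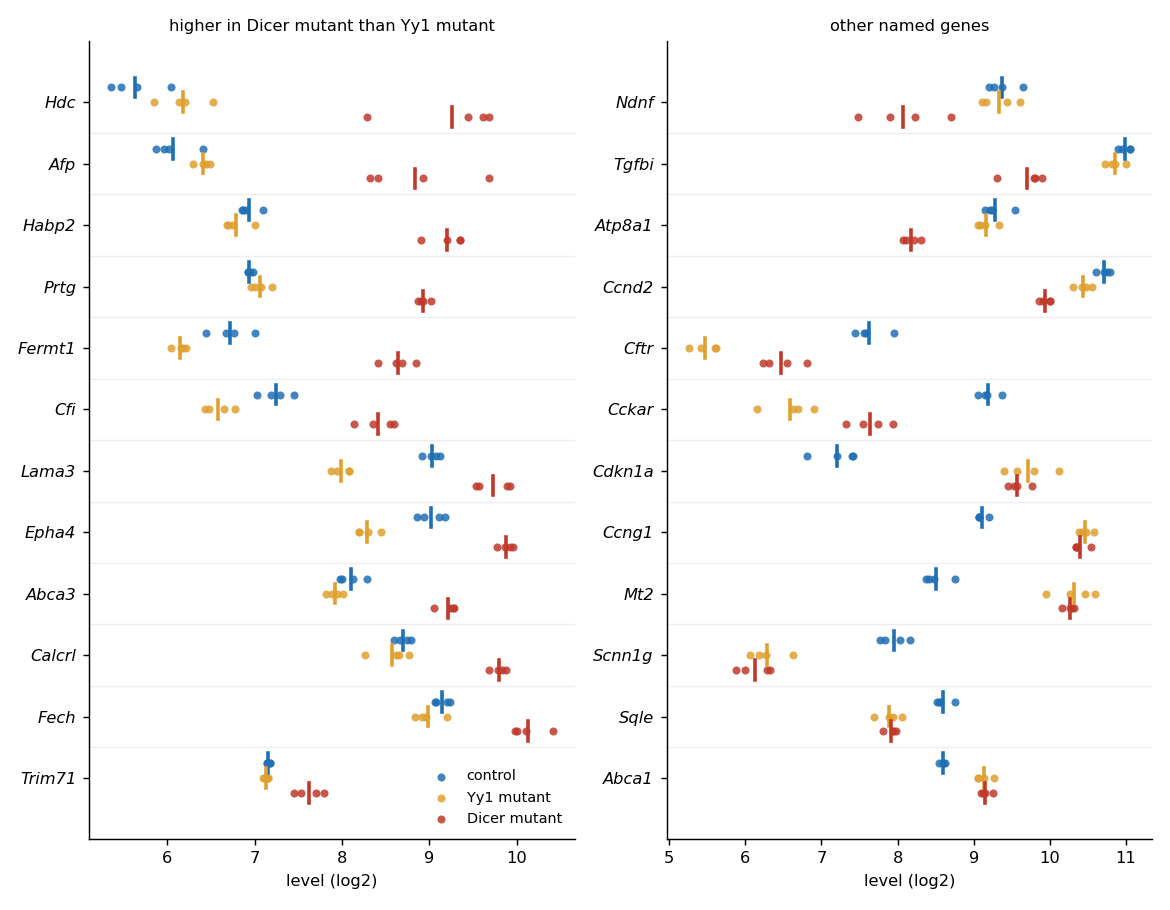
Levels (log2, x axis) of 24 named genes in the 4 control, 4 Yy1 mutant and 4 Dicer mutant arrays, with bars at group means. On the left are genes higher in Dicer than in Yy1 mutants, chosen for that difference, and on the right are genes lower in Dicer mutants (Ndnf, Tgfbi, Atp8a1, Ccnd2) or at other positions, such as Cdkn1a and Sqle, where the mutants lie close together and away from the controls.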

How the data were processed

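Total RNA of 12 whole-lung specimens was hybridised to single-channel Affymetrix arrays, per the labels, 4 per genotype. The authors deposited a table of log2 values for 41345 probe sets. No label or header names a background correction or normalisation, and the values were used as deposited. Medians of the 8 compared arrays lay between 5.99 and 6.08. Of the probe sets, 23521 had 1 gene symbol in the platform annotation, 1814 several and 16010 none. The probe set with the highest mean stood for each of 22180 genes.

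The 3 genotypes were fitted together with limma 3.58.1 (lmFit, eBayes, R 4.3.3), two-sided, on 9 residual degrees of freedom, with Benjamini-Hochberg adjustment over all genes and calls at 0.05. On simulated data 61.2% of shifts of 0.5 log2, 92.5% of shifts of 1 and 100% of shifts of 2 were called. These shifts were given to 67, 67 and 66 genes, and 13 genes without a shift were called too. The simulated noise was normal and independent between genes, and far fewer genes changed than the 1940 called here, so the shares may differ in the data. Arrays have no count depth, and their number limits the precision.

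Members and gene lists were chosen with earlier results of these data known, so lists are described by counts and medians and carry no test. Named genes were Dicer1, the 25 largest rises and falls with separate groups, and up to 4 called members per list and direction by smallest p (up to 6 for microRNA genes). Atp8a1, Ugt8a, Hmgcs1, Sftpa1, Slc34a2, Eif2s3y and all genes given as not called were named outside that rule after their values were seen. Sequences came from RefSeq (GRCm38.p6).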

Additional observations from a re-analysis of the deposited data

Results flagged for a closer look

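Among 159 named genes, 318 groups of 4 arrays were examined for an array that stood apart by Dixon's criterion, and 20 such arrays were found. Chance marks about 1 in 20 groups, so the number is near what chance gives.

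Arrays that stood above the other 3 of their group in genes whose change is described above were spread over both genotypes. For Ctse, control 1 read 7.65 against 6.39 to 6.60 in the other controls, and Dicer mutant 3 read 9.98 against 8.80 to 8.98 in the other mutants. Control 2 was high for both surfactant-related genes, with Sftpb at 9.84 against 9.05 to 9.13 and Ctsh at 8.59 against 7.79 to 7.90. For Ccng1, control 1 read 9.20 against 9.06 to 9.07 and Dicer mutant 4 read 10.54 against 10.34 to 10.35. Aldh1a7 was 10.49 in control 3 against 10.24 to 10.27, and Hmgcs1 was 10.13 in control 1 against 9.86 to 9.90. Clu was 10.10 in Dicer mutant 3 against 9.74 to 9.79. Abca8a was 7.80 in Dicer mutant 1 against 7.65 in each of the other mutants. Dicer mutant 2 was high for Insr (8.57 against 8.38 to 8.41), Laptm5 (6.92 against 6.77 to 6.78) and Ms4a7 (6.43 against 5.99 to 6.04).

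Arrays that stood below the others were control 4 for Trim25 (7.67 against 7.86 to 7.90), control 3 for Rmc1 (7.06 against 7.26 to 7.29) and control 2 for Bbc3 (5.68 against 5.99 to 6.03). Among genes that were not called, Fcer1a was 2.52 in Dicer mutant 3 against 2.69 to 2.71, Gata1 was 5.75 in control 4 against 5.31 to 5.35, and Klf1 was 5.82 in Dicer mutant 3 against 5.50 to 5.54. The Y-linked gene Eif2s3y was 7.84 in Dicer mutant 4 against 3.91 to 4.33 in the other mutants.

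Probe sets without exactly 1 gene symbol stood outside the comparison. Of 17824 tested in the same model 126 were called (0.707%), 95 higher and 31 lower in the Dicer mutants.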

How the results depend on the processing

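The naming rule, with the genes named outside it, gave 591 genes, not all of which are named in the text. None of the 591 reversed under the alternatives tried, with 545 testable once the dimmest genes were removed. Many lost their call: 405 with a minimum change of 1.2-fold, 84 with the control and Dicer mutant arrays only and 67 with the covariate. Between 55 and 127 lost it without 1 array, and 197 without the 3 Y-raised arrays. Ifit1 gained a call with array weights and Ebp without control 2. Called genes, higher and lower, numbered 1495 and 1305 with array weights, 872 and 642 with the control and Dicer mutant arrays only, 892 and 721 with the covariate Xist minus Eif2s3y, 1003 and 790 with equal array medians, 1294 and 1167 with an intensity trend and robust prior, 1019 and 852 with the mean of all probe sets, 165 and 110 (275 in all) with a minimum change of 1.2-fold, 1208 and 1033 after quantile normalisation, and 1249 and 1125 without the dimmest 30% of genes. Leaving out Dicer mutant 4 and 2 Yy1 mutants, whose Y-linked genes were raised, gave 578 and 398 (976 in all). Without 1 array the total ranged from 1275 to 1991, the higher count from 738 to 1122 and the lower from 537 to 869, and the counts of at least 2-fold from 58 to 68 higher and 36 to 50 lower. With the replicate number as a block 1009 were higher and 839 lower (1848 in all). Same-numbered arrays correlated by -0.0198 to 0.190 in their deviations, so the numbers were not taken to pair the specimens. The causes of these movements were not tested.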

Other observations

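Neighbouring genes were called together in some places. With 22109 genes placed in RefSeq gene order, 18 runs of at least 3 adjacent genes were called in the same direction, 11 higher and 7 lower, and the longest held 4 genes. Ms4a14 (0.70), Ms4a7 (0.77) and Ms4a4a (1.15), membrane protein genes known from leukocytes, rose together and kept their calls without any 1 array. Dhx29 (-0.42), an RNA helicase gene, lies beside Ccno (-0.81) and Mcidas (-0.49), both known for making cells with many cilia, and these 3 falls also held without any 1 array. Of 36 motile cilium genes, Ccno and Mcidas among them, 5 fell (13.9%, against 3.97% of all genes). The mean level of that list was low, 5.47 to 5.71 over the 8 arrays, and Foxj1 (-0.13), a regulator on it, was not called. Other runs rested on calls near the threshold. Riok3, Rmc1 and Npc1 rose, but Rmc1 was not called without Dicer mutant 2 or control 3. In the run of Ifnar2, Il10rb, A930006K02Rik and Ifnar1, the calls of Ifnar1 (0.25) and Ifnar2 (0.30) were lost without Dicer mutant 2, 3 or 4 or control 1, 3 or 4. In the run of Atp2b4, Optc, Prelp and Fmod, Atp2b4 and Optc were both lost without Dicer mutant 3 or 4 or control 1 or 2, and Atp2b4 also without Dicer mutant 1, and Optc also without Dicer mutant 2 or control 4. No test was made of the number of runs.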
